A study of Apostichopus japonicus with 3 samples.

Results

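Transcripts named for parts of the circadian clock, for cryptochrome and for photolyase were followed in the sea cucumber Apostichopus japonicus in 3 messenger RNA libraries. They were found by name: an isotig, which is a transcript assembled from sequencing reads, was kept when the first KEGG orthology name in the deposited tables held cryptochrome, photo-lyase, casein kinase 1, timeless, aryl hydrocarbon receptor nuclear translocator, nuclear receptor subfamily 1 group D or one of a few other clock terms. The rule kept 21 of the 21290 isotigs in the 3 tables. Of these, 6 were named casein kinase 1, 6 nuclear receptor subfamily 1 group D, 4 timeless, 2 TIMELESS-interacting protein, 1 cryptochrome, 1 deoxyribodipyrimidine photo-lyase and 1 aryl hydrocarbon receptor nuclear translocator. The terms circadian, period circadian and RAR-related orphan matched 0 isotig names in the tables used here.

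Animals of the light library spent 2 h at about 2000 lux, those of the dark library spent 2 h in a covered tank without light, and those of the control library were in natural light of about 100 lux. Each group has 1 library, and the sources used here give neither the number of animals behind it nor their age or the hour of sampling. By its tissue label and extraction protocol the RNA came from body wall, whereas the source label reads intestine. The design asks how body wall transcripts differ under strong light and in darkness.

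In animals with a well-studied clock, transcription factors of the bHLH-PAS family switch on their own repressors, and the repressors are then marked by kinases and degraded, which sets a daily cycle. Cryptochromes are flavoproteins that sense blue light in insects and act as repressors in the vertebrate clock, and the related photolyases use blue light to repair pyrimidine dimers that ultraviolet light leaves in DNA. Casein kinase 1 phosphorylates the period proteins in flies and mammals, and nuclear receptors of subfamily 1 group D, known in mammals as REV-ERB, repress clock transcription factors. Casein kinase 1 and aryl hydrocarbon receptor nuclear translocator (ARNT) have many roles outside the clock, so these names mark clock relatives and not a clock as such.

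The libraries held about 1.6e+06 uniquely assigned reads in light, 1.7e+06 in dark and 1.6e+06 in control, and the 21 isotigs together held 1022, 518 and 904 of them. Levels are given as reads and as the deposited RPKM, which divides reads by isotig length and library total. Fibrillar collagen, a marker of the body wall, took 2.31% of reads in light, 1.96% in dark and 2.08% in control, and digestive enzymes, which would mark gut, took 0.266%, 0.256% and 0.264%. The dark library stood apart from the other two. Ribosomal protein isotigs took 7.84% of reads in light, 12.8% in dark and 8.02% in control, and the median log2 ratio over the 18225 isotigs whose 3 libraries averaged 1 RPKM or more was 0.00 for light over control and -0.31 for dark over control. Ratios of dark over control are therefore given on the deposited scale and also after median-of-ratios size factors, under which that median is close to 0. With 1 library per group there is no test between conditions, and every ratio compares 2 libraries. The 95% counting interval given with it covers counting error only.

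The isotigs spanned a wide range of levels. Of the 21, 17 averaged 1 RPKM or more and enter the counts below, 5 had at least 50 reads on average, and 6 had at most 3 reads in every library. The 17 had a median level of 8.56 RPKM, against 14.3 RPKM for all isotigs past the same limit, and 7 of them lay above that value. Just inside the limit was a casein kinase 1 delta isotig (isotig04217) at 1.01 RPKM, and just outside it another (isotig04215) at 0.56 RPKM. The most abundant member was named nuclear receptor subfamily 1 group D member 1 (isotig16963), followed by casein kinase 1 gamma (isotig10165) and casein kinase 1 alpha (isotig15194). In the light library these 3 did not differ beyond their counting intervals, at 113 RPKM (97.5 to 129), 107 RPKM (94.7 to 120) and 104 RPKM (91.4 to 119). In the dark library they stood at 51.8 RPKM (41.8 to 63.4), 35.0 RPKM (28.3 to 42.7) and 48.8 RPKM (40.2 to 58.6), and the gamma isotig had the lowest value of the 3, with an interval that overlapped both others. In control they stood at 116 RPKM (99.9 to 133), 105 RPKM (92.9 to 119) and 75.6 RPKM (64.4 to 88.2).

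**Figure D1:**
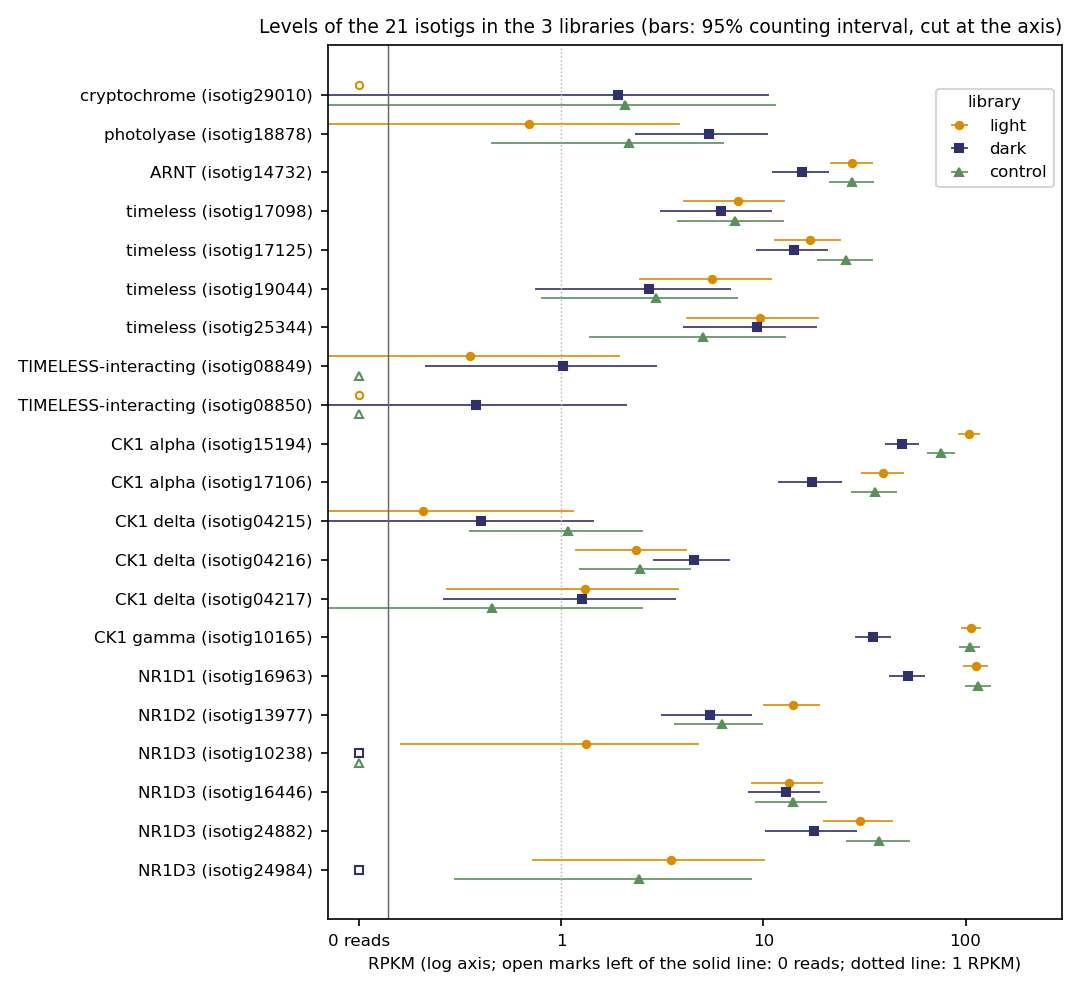
RPKM of each of the 21 isotigs (log axis) in the light, dark and control libraries, with 95% counting intervals as bars and open marks where a library had 0 reads (CK1 is casein kinase 1 and NR1D nuclear receptor subfamily 1 group D). ARNT, casein kinase 1 alpha and gamma and the receptor isotig16963 have their lowest values in the dark library, while cryptochrome, photolyase and TIMELESS-interacting protein rest on at most 8 reads in any library.

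The cryptochrome and photolyase isotigs were near the limit of detection. The cryptochrome isotig (isotig29010), a fragment of 307 bases whose best match was a sea urchin sequence, had 0 reads in light, 1 in dark and 1 in control. A count of 0 in the light library allows a level of up to 5.94 RPKM for so short an isotig, which lies above its 1.92 RPKM in dark and 2.07 RPKM in control, so no difference was detectable at this depth. The photolyase isotig (isotig18878), 878 bases long with a zebrafish best match, had 1 read in light (0.69 RPKM), 8 in dark (5.37 RPKM) and 3 in control (2.18 RPKM). It was highest in the dark library, 2.47-fold over control, with a counting interval of 0.59 to 14.4 that spans no difference, and 3.07-fold with size factors (0.738 to 18.0). Between light and dark it was 7.75-fold lower in light on the deposited scale (1.04 to 344), an interval that reaches almost to no difference and rests on 9 reads in both libraries together. With size factors the ratio of light to dark was 0.102 (0.00231 to 0.764), on the same few reads. The 8 dark reads covered 41.8% of the isotig, against 36.0% if reads of 49 bases fell at random, so they were not piled on one place.

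ARNT (isotig14732) is named for the common partner of several bHLH-PAS factors, among them the aryl hydrocarbon receptor and hypoxia-inducible factor 1 alpha. It had 67 reads in light (27.5 RPKM), 39 in dark (15.5 RPKM) and 64 in control (27.5 RPKM). Light and control were at the same level within counting error (ratio 0.999, 0.699 to 1.43). The dark library was 1.77-fold lower than control (1.17 to 2.71), and with size factors the ratio was 0.702 (0.459 to 1.06), which spans 1. Its match to a sea urchin ARNT had an E-value of 2e-138.

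The timeless name covers distinct proteins. In Drosophila timeless is the partner of period, whereas the related vertebrate protein travels with the DNA replication fork together with TIMELESS-interacting protein. All 4 timeless isotigs had sea urchin best matches, 3 of them to the same sequence, so these 3 may be pieces of 1 gene. The most abundant (isotig17125), with the other match, had 29 reads in light (16.9 RPKM), 25 in dark (14.1 RPKM) and 42 in control (25.7 RPKM). It was 1.52-fold lower in light than in control (0.923 to 2.53) and 1.82-fold lower in dark than in control (1.08 to 3.11). With size factors the dark ratio was 0.686 (0.401 to 1.15). The 3 that share a match (isotig17098, isotig19044 and isotig25344) had 8 to 13 reads in light, 4 to 11 in dark and 4 to 12 in control, at 5.60 to 9.61, 2.71 to 9.31 and 2.93 to 7.28 RPKM, and none of them differed between any 2 libraries beyond counting error. Summed, the 4 isotigs had 58 reads in light, 48 in dark and 62 in control. The sums differed by less than counting error in light against control (ratio 0.893, 0.613 to 1.30) and in dark against control (0.716, 0.481 to 1.06, and 0.892, 0.599 to 1.32, with size factors). The 2 TIMELESS-interacting protein isotigs (isotig08849 and isotig08850) had 1 read in light, 4 in dark and 0 in control in all, too few for a ratio.

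Among the casein kinase 1 isotigs, gamma was 3.01-fold lower in the dark than in control, both alpha isotigs were also lower, and delta was not. The 6 isotigs together had 601 reads in light, 267 in dark and 505 in control, of which delta gave 15, 27 and 17. The gamma isotig (isotig10165), named for the membrane-bound kinase that acts in Wnt signalling, had 284 reads in light (107 RPKM), 96 in dark (35.0 RPKM) and 267 in control (105 RPKM). Light and control overlapped (ratio 1.02, 0.856 to 1.2), while dark lay outside the intervals of both. Dark was lower than control by 3.01-fold (2.37 to 3.84), and with size factors the ratio remained below 1 at 0.414 (0.325 to 0.525).

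Casein kinase 1 alpha, which acts on period proteins in flies and on beta-catenin, had 2 isotigs. The first (isotig15194) had 234 reads in light (104 RPKM), 113 in dark (48.8 RPKM) and 162 in control (75.6 RPKM). It was 1.38-fold higher in light than in control (1.12 to 1.70) and 1.55-fold lower in dark than in control (1.21 to 1.99). The second (isotig17106) had 68 reads in light (39.3 RPKM), 31 in dark (17.4 RPKM) and 59 in control (35.7 RPKM). In light it did not differ from control beyond counting error (ratio 1.10, 0.765 to 1.59), and in dark it was 2.06-fold lower than control (1.31 to 3.29). With size factors the dark ratios were 0.804 (0.627 to 1.03) for isotig15194 and 0.606 (0.379 to 0.951) for isotig17106, so the first no longer lay outside counting error. The isotig15194 share of alpha reads was 77.5% in light, 78.5% in dark and 73.3% in control, with overlapping intervals.

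Casein kinase 1 delta, with epsilon the main kinase of period proteins in mammals, was the scarcest kind. Its 3 isotigs (isotig04215, isotig04216 and isotig04217) shared 1 sea urchin best match with the same score. Reads are counted in the tables when they are uniquely assigned, so sequence common to the 3 forms may have gone uncounted and their levels may be understated. The main form (isotig04216) had 11 reads in light (2.34 RPKM), 22 in dark (4.53 RPKM) and 11 in control (2.45 RPKM). Its dark value was the highest, 1.85-fold over control, within counting error on the deposited scale (0.859 to 4.22) and outside it with size factors (2.31-fold, 1.07 to 5.26). The other forms had at most 5 reads in any library. Over the 3 forms there were 15 reads in light, 27 in dark and 17 in control, and the dark sum was 1.47-fold the control sum (0.772 to 2.87), or 1.83-fold with size factors (0.962 to 3.58).

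Shares of the casein kinase 1 reads within a library do not depend on how libraries are scaled. Delta made up 2.50% of them in light (95% exact binomial interval 1.40 to 4.08), 10.1% in dark (6.77 to 14.4) and 3.37% in control (1.97 to 5.34). The dark interval did not overlap the other two. A larger share need not be a higher level, since it also depends on the alpha and gamma reads. The delta sums of dark and control differed by less than counting error on either scale, as given above. Gamma made up 47.3% in light (43.2 to 51.3), 36.0% in dark (30.2 to 42.0) and 52.9% in control (48.4 to 57.3), again with dark apart. Alpha made up 50.2% in light (46.2 to 54.3), 53.9% in dark (47.8 to 60.0) and 43.8% in control (39.4 to 48.2), and for alpha the intervals of all 3 libraries overlapped. These shares were computed after the values of the single isotigs had been seen.

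**Figure D2:**
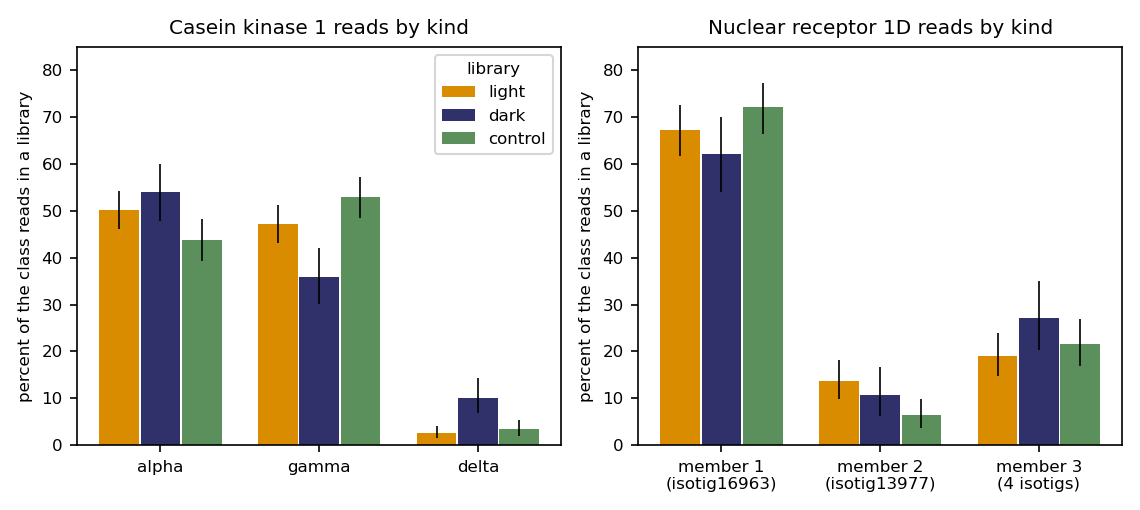
Share of casein kinase 1 reads (left) and of nuclear receptor subfamily 1 group D reads (right) that each kind took in the light, dark and control libraries, in percent, with 95% exact binomial intervals. Delta has its largest share in the dark library at 10.1%, gamma its smallest at 36.0%, and receptor member 2 ranges between 6.32% in control and 13.6% in light.

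The nuclear receptor isotigs differed among themselves. The isotig named member 1 (isotig16963) takes its name from a receptor that in mammals binds heme and represses the BMAL1 gene. It had 198 reads in light (113 RPKM), 94 in dark (51.8 RPKM) and 194 in control (116 RPKM). Light and control were alike within counting error (ratio 0.974, 0.795 to 1.19). Dark was 2.23-fold lower than control (1.74 to 2.89), and with size factors the ratio was 0.558 (0.432 to 0.718). The match has an E-value of 1e-16 and 87.8 bits, weak for an isotig of 1069 bases, so its placing in the family is uncertain.

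The isotig named member 2 (isotig13977) was the one receptor that was higher in light than in control beyond counting error. It had 40 reads in light (14.0 RPKM), 16 in dark (5.43 RPKM) and 17 in control (6.24 RPKM). Light was 2.25-fold higher than control (1.24 to 4.23), and dark did not differ from control beyond counting error (ratio 0.870, 0.411 to 1.83, and 1.08, 0.513 to 2.28, with size factors). Of all nuclear receptor reads among the members it took 13.6% in light (9.90 to 18.1), 10.6% in dark (6.18 to 16.6) and 6.32% in control (3.72 to 9.93), where the light and control intervals overlap by a small margin. Its match is the weakest of the 21, with an E-value of 4e-11 and 70.5 bits.

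Member 3 is the KEGG name that takes in the ecdysone-induced receptors of insects, and 4 isotigs carried it. One (isotig16446) had 25 reads in each library, at 13.4 RPKM in light, 12.9 RPKM in dark and 14.0 RPKM in control, and the dark ratio to control was 0.925 on the deposited scale and 1.15 (0.635 to 2.09) with size factors. Another (isotig24882) had 26 reads in light (30.1 RPKM), 16 in dark (17.9 RPKM) and 31 in control (37.5 RPKM). Dark was 2.10-fold lower than control (1.11 to 4.1), and the ratio was 0.595 (0.304 to 1.12) with size factors. The other two (isotig24984 and isotig10238) had at most 3 reads in any library, and no ratio is given for them. Summed over the 4, light differed from control by less than counting error (ratio 0.922, 0.627 to 1.35), and dark was 1.53-fold lower than control (1.01 to 2.34), a difference that ended with size factors (ratio 0.815, 0.533 to 1.24).

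**Figure D3:**
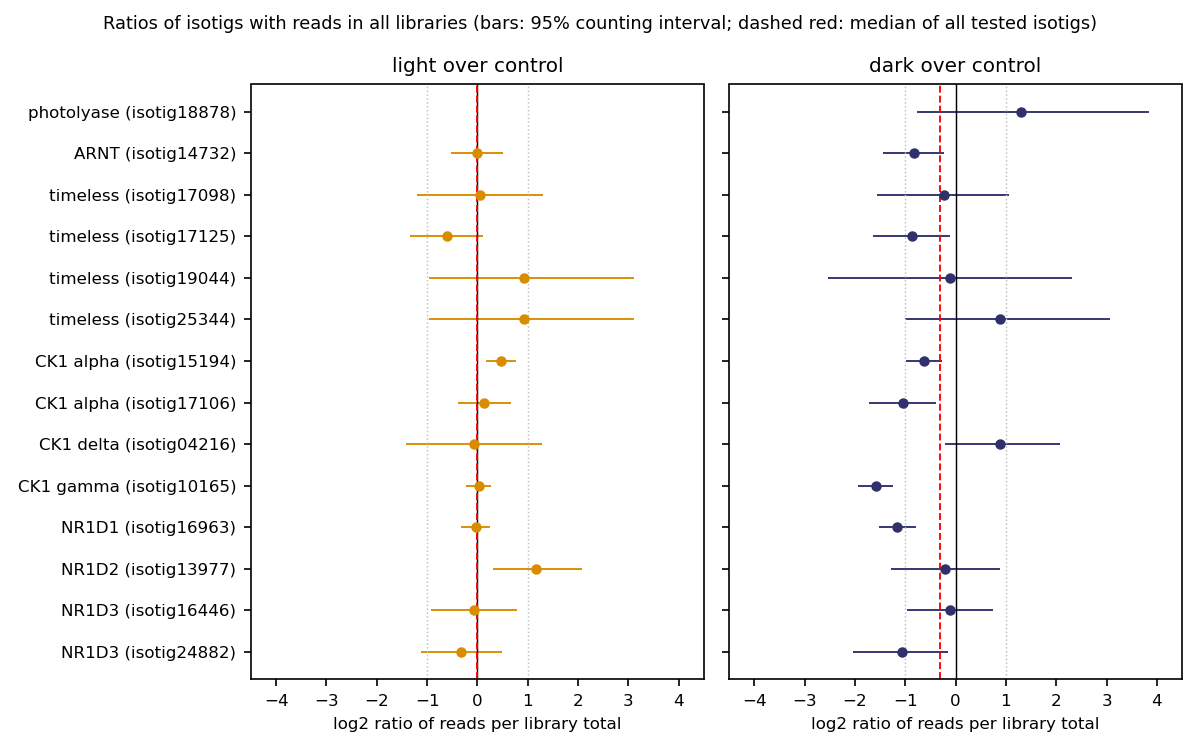
Log2 ratio of reads per library total for light over control (left) and dark over control (right), with 95% counting intervals, for the 14 isotigs averaging at least 1 RPKM with reads in all 3 libraries and more than 3 reads in at least 1 (CK1, casein kinase 1, and NR1D, nuclear receptor subfamily 1 group D), leaving out pairs with at most 3 reads on both sides. The dashed red line is the median of all 18225 isotigs, at 0.00 on the left and -0.31 on the right, and the gamma kinase, the alpha kinase isotig17106 and the receptor isotig16963 lie wholly below it in the dark.

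In light over control the 17 isotigs were centred on no difference. On the scale of log2(RPKM + 0.5), which understates the ratios of scarce isotigs, their median was 0.02, or 0.05 with 3 reads in place of 0, against 0.00 for all isotigs. There was 1 member at least 2-fold higher, the receptor isotig13977, where 7.77% of all isotigs were. The 2 members at least 2-fold lower were photolyase and cryptochrome, with at most 3 reads on either side, where 7.22% of all isotigs were. With size factors the same 1 and 2 members were counted, against 7.53% and 7.31% of all isotigs. By the counting interval, 2 members lay wholly above 1, isotig13977 and the alpha kinase isotig15194, against 6.16% of all isotigs, and 0 lay wholly below it, against 5.31%. At this number of members these counts are near the shares of all isotigs.

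In dark over control the median of the 17 was -0.22, or -0.18 with 3 reads in place of 0, against -0.31 for all isotigs, and with size factors it was 0.07. The scarce members set this value, since over the 11 members with at least 5 RPKM the median was -0.81 on the deposited scale. No median of all isotigs was computed at that limit, so -0.81 is not to be read against -0.31. On the deposited scale 5 of 17 were at least 2-fold lower, where 24.0% of all isotigs were. They were the gamma kinase, isotig16963, isotig17106, isotig24882 and the scarce isotig24984. Photolyase was the 1 member at least 2-fold higher, where 7.09% of all isotigs were. With size factors 2 were lower, against 16.6% of all isotigs, and 4 were higher, against 11.8%. The higher ones were photolyase, 2 casein kinase 1 delta isotigs and a timeless isotig (isotig25344), with 3 to 22 reads in dark and 1 to 11 in control. By the counting interval 7 members lay wholly below 1, against 22.1% of all isotigs, and 0 wholly above, against 7.64%. The dark library held the lowest of the 3 values for 12 of 17 members, against 54.3% of all isotigs, and with size factors for 7 of 17, against 40.4%.

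The 5 members with at least 50 reads on average, ARNT, gamma, both alpha isotigs and isotig16963, had log2 ratios of -1.58 to -0.63 in dark over control and -0.04 to 0.46 in light over control. Among all 4565 isotigs with that many reads, the median was -0.22 in the dark with a standard deviation of 0.75, and 16.5% were at least 2-fold lower. In light over control that standard deviation was 0.42. With size factors the 5 members ran from -1.26 to -0.31 in dark over control. Marker sums, on the deposited scale only, were lower in dark than in control for nerve, and less so for muscle, collagen and digestive enzymes. Fibrillar collagen summed to 22854 RPKM in light, 18918 RPKM in dark and 20542 RPKM in control, and digestive enzymes to 1772, 1735 and 1795 RPKM. The 6 nerve marker isotigs were read in all libraries and summed to 254 RPKM in light, 123 RPKM in dark and 295 RPKM in control, and the 97 muscle marker isotigs to 3115, 2059 and 2763 RPKM, with 10, 18 and 8 of them at 0 reads. Fewer cells of a kind and less RNA per cell cannot be told apart in these bulk libraries, and the part of these cells and of the larger ribosomal protein share in the dark ratios was not tested.

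In light over dark the counts were near the shares of all isotigs. Of the 17 members, 6 were at least 2-fold higher in light, against 26.2% of all isotigs, and 2 lower, against 8.09%. The higher ones were both alpha kinases, gamma, isotig16963, isotig13977 and isotig24984, and the lower ones were photolyase and cryptochrome. The gamma ratio was 3.05 (2.42 to 3.89), or 2.43 (1.92 to 3.09) with size factors. That of isotig15194 was 2.14 (1.7 to 2.7), or 1.70 (1.35 to 2.14) with size factors, while isotig24984 rests on 3 reads in light and 0 in dark. With size factors 2 were higher, gamma and isotig24984, against 18.5% of all isotigs, and 3 lower, against 14.1%. The counting interval lay wholly above 1 for 6 members, against 23.8% of all isotigs, and wholly below it for 1, photolyase, against 9.43%. This comparison shares its libraries with the other comparisons, so it is no separate evidence.

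The spread of reads along the isotigs was set against random placement. Isotigs with 1 read were covered over 49 bases, taken as the read length. Among the 11 members with at least 10 reads in a library, coverage fell short of that of randomly placed reads by a median of 8.14 percentage points in light, 7.46 in dark and 4.06 in control, where the medians over all isotigs with as many reads were 9.79, 9.44 and 9.32. The largest shortfall was that of the receptor isotig24882, covered over 67.3% in light, 63.1% in dark and 65.2% in control where random placement would give 91.1%, 77.5% and 94.4%.

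**Figure D4:**
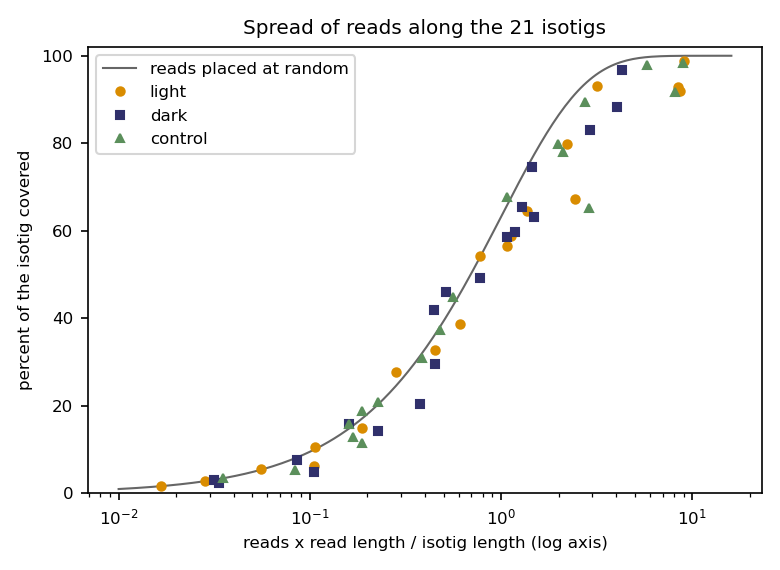
Percent of each isotig covered by reads against the number of read lengths per isotig length (log axis) in the light, dark and control libraries, with the curve for reads placed at random. Most points follow the curve or lie below it, and isotig24882 in control, covered over 65.2%, is farthest from it.

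Other genes were gathered by name in 3 further lists: clock regulators, bHLH-PAS partners of ARNT and nucleotide excision repair. Of the clock regulators, which are phosphatases, kinases, ubiquitin ligase parts, CREB cofactors, sirtuin 1 and nicotinamide phosphoribosyltransferase, 28 of 31 isotigs passed the level limit. In light over control 1 was at least 2-fold higher and 1 lower (median log2 ratio 0.10), where 7.77% and 7.22% of all isotigs were. In dark over control 0 were higher and 9 lower (median -0.64, or -0.33 relative to all isotigs), where 24.0% of all isotigs were lower. After size factors there were 5 past 2-fold on the lower side, against 16.6% of all isotigs, and 0 on the higher side, against 11.8%. By the counting interval 15 of the 28 lay wholly below 1, against 22.1% of all isotigs. Both isotigs of the CREB-regulated transcription coactivator, which switches on CREB targets, were among the lower ones. One of them (isotig14442) had 93 reads in light, 21 in dark and 48 in control. It was 1.85-fold higher in light than in control (1.29 to 2.68) and 2.47-fold lower in dark than in control (1.45 to 4.35), with a ratio of 0.504 (0.287 to 0.859) after size factors. The other (isotig21193) had 26 reads in light, 4 in dark and 32 in control, 8.65-fold lower in dark than in control (3.07 to 33.7), with a ratio of 0.144 (0.037 to 0.406) after size factors. Not all regulators were lower. Casein kinase II subunit beta (isotig17595), singled out after its values were seen, had 210 reads in light, 224 in dark and 175 in control. Its ratio of dark to control was 1.18 (0.967 to 1.45), and 1.48 (1.21 to 1.81) after size factors.

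The histone acetyltransferase named E1A/CREB-binding protein had 3 isotigs, all lower in dark than in control on the deposited scale. The differences were 2.90-fold for isotig13738 (1.81 to 4.79), 3.03-fold for isotig28025 (1.03 to 10.7) and, short of 2-fold, 1.95-fold for isotig14239 (1.39 to 2.76). With size factors the ratios were 0.430 (0.260 to 0.690) for isotig13738, 0.412 (0.116 to 1.21) for isotig28025, which spans 1, and 0.640 (0.452 to 0.899) for isotig14239. In light isotig14239 was 1.34-fold higher than in control (1.03 to 1.75). Protein phosphatase 1 and 2A, which remove phosphates from period proteins in flies and mammals, had lower isotigs for a catalytic subunit of phosphatase 1 (isotig25669, 2.44-fold, 1.62 to 3.75), a catalytic subunit of 2A (isotig13997, 2.01-fold, 1.72 to 2.34) and a regulatory subunit of 2A (isotig05626, 2.86-fold, 1.61 to 5.34). Their ratios after size factors were 0.511 (0.333 to 0.769) for isotig25669, 0.621 (0.533 to 0.723) for isotig13997 and 0.435 (0.234 to 0.776) for isotig05626. The other isotigs of these phosphatases past the level limit went both ways. Several were lower in dark than in control by less than 2-fold. The most read of these were a 2A regulatory subunit (isotig13808, 1.68-fold, 1.43 to 1.97) and a phosphatase 1 catalytic subunit (isotig15244, 1.84-fold, 1.49 to 2.28). After size factors their ratios were 0.744 (0.634 to 0.871) and 0.676 (0.546 to 0.835). Others were higher in dark than in control, within counting error on either scale. A catalytic subunit of 2A (isotig09143) was 1.49-fold higher (0.800 to 2.85). A regulatory subunit of 2A (isotig20405) was 1.19-fold higher (0.705 to 2.02), and a catalytic subunit of phosphatase 1 (isotig28307) 1.39-fold (0.329 to 6.68). Between light and dark isotig09143 was 2.16-fold lower in light (1.09 to 4.53), with a ratio of 0.368 (0.175 to 0.730) after size factors. Sirtuin 1, a deacetylase of clock proteins in mammals, was 2.39-fold lower in dark than in control on the deposited scale (isotig19786, 1.24 to 4.87), and with size factors the ratio of 0.521 (0.256 to 1.01) spanned 1. The ninth, a scarce 2A regulatory isotig (isotig12175), had 1 read in dark and 6 in control (ratio 0.154, 0.00335 to 1.27, and 0.192, 0.00418 to 1.58, after size factors), and it is named because it completes the count. Nicotinamide phosphoribosyltransferase, which makes the cofactor of sirtuins, was the 1 regulator at least 2-fold higher in light (isotig29084), with 14 reads in light and 6 in control (2.23-fold, 0.804 to 7.07), a difference within counting error.

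Of the bHLH-PAS partners of ARNT, 4 of 5 isotigs passed the level limit, and all 4 had their lowest value in the dark library, where 54.3% of all isotigs did. The counting interval of dark over control lay wholly below 1 for 2 of them, against 22.1% of all isotigs. Among the 4, log2 ratios for dark over control ran from -1.32 to -0.71, and for light over control from -0.19 to 0.31. The 2 isotigs named hypoxia-inducible factor 1 alpha (isotig16875 and isotig27066), singled out after their values were seen, had 360 and 349 reads in light, 175 and 199 in dark, and 284 and 301 in control. They were 1.76-fold (1.45 to 2.13) and 1.64-fold (1.36 to 1.97) lower in dark than in control, with ratios of 0.710 (0.585 to 0.860) and 0.762 (0.634 to 0.914) after size factors. In light isotig16875 was 1.21-fold higher than in control (1.03 to 1.42), and isotig27066 did not differ from control beyond counting error (1.11, 0.946 to 1.30). The isotig named neuronal PAS domain protein (isotig27508) was the 1 of 4 past 2-fold, with 5 reads in dark and 12 in control (2.60-fold lower, 0.851 to 9.40), and its ratio after size factors was 0.480 (0.133 to 1.46). On either scale 1 of 4 was at least 2-fold lower, where 24.0% of all isotigs were on the deposited scale and 16.6% with size factors.

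Nucleotide excision repair is the route that removes ultraviolet damage without light. Among its 13 tested isotigs, dark over control had 0 past 2-fold on the higher side and 1 on the lower side (median -0.37, or -0.05 relative to all isotigs), where 7.09% and 24.0% of all isotigs were. Light over control had 2 and 0 (median 0.24), where 7.77% and 7.22% of all isotigs were. The lower one was ERCC-4 (isotig15088), an endonuclease subunit, with 12 reads in dark and 24 in control (2.16-fold, 1.04 to 4.75). With size factors its ratio was 0.576 (0.263 to 1.20), which spans 1, and 0 of the 13 were at least 2-fold lower. The UV excision repair protein RAD23 (isotig25504), named after its values were seen, had 120 reads in light, 64 in dark and 96 in control. It was 1.62-fold lower in dark than in control (1.17 to 2.26), and its size-factor ratio of 0.768 (0.551 to 1.07) spanned 1. ERCC-4 and RAD23 were the 2 of 13 with a counting interval wholly below 1 in dark over control, against 22.1% of all isotigs. Both higher ones had a mean below 5 RPKM, and 0 of the 13 isotigs had a counting interval wholly above 1 in light over control.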

How the data were processed

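Polyadenylated RNA was fragmented, copied with random hexamers and sequenced, per the labels' protocols, which record no strand marking and no molecular identifiers. CASAVA 1.5 is named in the submitters' processing notes, and those notes and the labels name no assembler, aligner, build or filter. Per the file headers, each deposited table gives the count of uniquely assigned reads per isotig, its length, the percent of it covered, and RPKM, which the authors scaled to length and library total. The deposited counts summed to the header totals. An isotig missing from a table was taken as 0 counts.

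Medians and ranges of log2 ratios and the 2-fold counts used the deposited RPKM plus 0.5 for isotigs averaging 1 RPKM or more. Single ratios given with intervals are of reads per library total, without the added 0.5. Counting intervals are exact conditional binomial (Clopper-Pearson) for ratios and shares and exact Poisson for levels, at 95%, from scipy 1.17.1. A limit for 0 reads is 3 counts. Size factors came from the 17337 isotigs with reads in all 3 libraries, and TMM factors from edgeR 4.0.16. The log2 ratios and ratio intervals were tested on simulated counts at the light and control depths, with 200 isotigs changed. That simulation held no shift like that of the dark library and no variation between animals. Size factors and TMM factors were not run on it. Digestive markers were matched at the start of the name. For this the planned terms chymotrypsin and lipase were dropped, amylase was narrowed to alpha-amylase and pancreatic was added, all after the names were seen. Of the members, all are named. Other genes are named from the lists when at least 2-fold apart from control with a mean of at least 5 RPKM. Some further isotigs are named beside them, and those apart only between light and dark are not all named. The members and lists were chosen with earlier results of these data known. Isotig sequences and genome positions were not used here.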

Additional observations from a re-analysis of the deposited data

How the results depend on the processing

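The dark counts depend on the scaling. The dark over control median of -0.22 became 0.074 with size factors and 0.063 with TMM factors, which raise all dark values, and it was -0.81 over the 11 members with at least 5 RPKM and -0.54 over 10 orthologies. Members at least 2-fold lower in dark over control numbered 5 of 17, but 2 with size factors, 2 with TMM factors and 3 with totals without the 20 most abundant isotigs. Summed over each orthology they numbered 2 of 10. Members higher numbered 1, but 4 with either factor. In light over dark, 6 higher members became 2 with either factor. With a pseudocount of 0.1, 2 were higher in light over control and 2 in dark over control, and with a pseudocount of 1, 1 was lower in light over control. Without a level limit 2 of 21 were higher in light over control and 2 of 21 in dark over control. With a mean of at least 5 RPKM, 0 of 11 were lower in light over control, 0 higher in dark over control and 0 lower in light over dark. At a limit of 1.5-fold, 4 were higher in light over control, and 4 higher and 8 lower in dark over control. At 4-fold the counts were 0 higher and 1 lower in light over control, 0 higher and 1 lower in dark over control, and 1 higher in light over dark. Shares of all isotigs were computed only for the 2-fold counts on the deposited and size-factor scales, as given above. Counts at the other settings show how the calls move and are no result about the members.

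In RPM of totals without the 20 most abundant isotigs, all members together made up 764 in light, 399 in dark and 710 in control, against 621, 305 and 576 RPM of the full totals. Casein kinase 1 made up 449, 205 and 396 (365, 157 and 322), ARNT and timeless 94.1, 70.0 and 98.9 (76.6, 53.6 and 80.2), and the nuclear receptors 220 in light, 116 in dark and 211 in control (179, 88.9 and 171), since the denominator is smaller. The E-value limit of 1e-10 left out 0 members. No paired analysis was possible because each group has 1 library, and no library can be left out. Depth limits the 16 members with under 50 reads on average, for which the ends of 17 of 28 ratio intervals, those with more than 3 reads on a side, lay over 4-fold apart. The sampling hour is not given, so nothing here bears on daily rhythm.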

Other observations

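The gene ontology columns give a view that the names do not use. The circadian rhythm term was attached to 12 isotigs, of which 5 are members (cryptochrome, the 3 casein kinase 1 delta forms and timeless isotig25344). The other 7 were taken up after their values had been seen. Nuclear receptor co-repressor 1, the partner through which mammalian REV-ERB recruits histone deacetylase 3, had 2 isotigs with the term. One (isotig17562) had 49 reads in light, 12 in dark and 44 in control, 3.97-fold lower in dark than in control (2.06 to 8.25). The other (isotig21965) had 48 reads in light, 19 in dark and 65 in control, 3.70-fold lower in dark than in control (2.19 to 6.53). With size factors the dark ratios were 0.314 (0.151 to 0.605) and 0.337 (0.191 to 0.569), and in light neither differed from control beyond counting error (1.06, 0.693 to 1.64, and 0.705, 0.475 to 1.04).

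Histone deacetylase 3 itself was scarce, with 7 reads in light, 8 in dark and 6 in control for its main isotig (isotig07490). An invertebrate cAMP response element-binding protein (isotig23351) had 22 reads in light, 18 in dark and 14 in control, and its ratios to control spanned 1 in light (1.5, 0.734 to 3.17) and in dark (1.19, 0.559 to 2.58, and 1.48, 0.696 to 3.22, with size factors). An isotig of F-box and WD-40 domain protein 1/11 (isotig01755), a ubiquitin ligase part that targets period proteins in flies and mammals and is also among the clock regulators counted above, had 216 reads in light, 118 in dark and 192 in control, 1.76-fold lower in dark than in control (1.39 to 2.23), with a ratio of 0.708 (0.558 to 0.896) after size factors.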
